A study of Homo sapiens with 32 samples.

Results

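The regions described here are 1002 stretches of RNA from PANC-1 cells, mapped to the genome, with an m6A peak called in both control libraries and in both CFL1 knockout libraries but in neither METTL3 knockout library. PANC-1 is a widely used line derived from a human pancreatic ductal adenocarcinoma. They were chosen from the control peaks on chromosomes 1 to 22 that were narrower than 2000 bp. Each such peak had to overlap, by at least 1 bp, a peak of the other control library and a peak of each CFL1 knockout library, and no METTL3 knockout peak. Of the 150692 control peaks within those limits, 106729 were also in the other control library, 42878 of these were in both CFL1 knockout libraries, and 1804 of these had no METTL3 knockout peak. The 1804 peaks, 903 from control 1 and 901 from control 2, were joined where they overlapped. They gave the 1002 regions, out of 96376 regions formed by all control peaks within the limits. The calls of all 6 libraries chose the members, so their presence and absence are a description and were not tested.

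N6-methyladenosine (m6A) is the most common internal modification of messenger RNA and also marks long noncoding and enhancer RNAs. METTL3 is the catalytic subunit of the nuclear complex that writes it, mostly at adenosines within the DRACH sequence context and with a preference for long exons and the surroundings of stop codons. Reader proteins of the YTH family bind the mark, and FTO and ALKBH5 can remove it. CFL1, cofilin 1, severs and depolymerises actin filaments and is not a known subunit of the writer complex. The title of the series connects it with m6A on super enhancer RNA.

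The groups used here were KO METTL3, KO CFL1 and Control PANC-1 cells, each with 2 anti-m6A antibody libraries and 2 inputs made from total RNA. No drug is named for these cells. The labels do not say whether a knockout is a single clone or whether the 2 libraries of a group are separate cultures, and their treatment field reads none for the control antibody libraries and m6A for those of the knockouts. The names of the peaks show libraries numbered 3 and 5 for each knockout and 1 and 2 for control, and those of the knockouts carry the letters si, although the labels say knockout. The loss of METTL3 or CFL1 itself cannot be read from peaks. The other 20 of the 32 samples were not used here. METTL3 knockout libraries held 63859 and 64952 peaks, CFL1 knockout libraries 72728 and 66295, and control libraries 77603 and 79467. A library with fewer peaks can hold fewer sites, and the part of this in the results below was not tested. Of the peaks found in both control libraries, 45059 were in both METTL3 knockout libraries and 42878 in both CFL1 knockout libraries. Read depth and the RNA level in the inputs were not examined. An absent peak is therefore a call that was not made, and less methylation, less RNA per cell and fewer cells with the RNA cannot be told apart. With 2 against 2 libraries an exact permutation test cannot give a two-sided p under 0.333, so values are described without tests. Exact 95% binomial intervals cover counting error only, and neighbouring peaks are not independent. A site can also enter a share of control peaks once per control library, so the intervals of those shares are too narrow.

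Members were a small share of the sites that the CFL1 knockout kept. Among control peaks found in both control and both CFL1 knockout libraries, 4.21% had no METTL3 knockout peak (1804 of 42878, interval 4.02% to 4.40%). Another 7.29% were found in 1 METTL3 knockout library and 88.5% in both. In the opposite direction, 5.15% of the 45059 control peaks found in both METTL3 knockout libraries had no CFL1 knockout peak (2322 peaks, 1282 regions). Over all peaks of both control libraries, without regard to the other knockout, 49.2% had no METTL3 knockout peak and 49.6% had no CFL1 knockout peak. These comparisons share the control libraries. Membership also rested on single libraries. When 1 METTL3 knockout library was used alone, 7.38% of the eligible peaks were absent from METTL3 knockout 3 and 8.32% from METTL3 knockout 5. This gave 1745 regions without METTL3 knockout 5 and 1968 without METTL3 knockout 3. Dropping the condition on 1 CFL1 knockout library gave 1916 regions without CFL1 knockout 3 and 1959 without CFL1 knockout 5.

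In each of the 4 libraries that held them, the members had lower medians than sites called in all 6 libraries. The authors' −log10 q, the peak caller's measure of confidence, had a median of 10.3 in CFL1 knockout 3, 11.3 in CFL1 knockout 5, 8.62 in control 1 and 9.87 in control 2. At the 19205 regions called in all 6 libraries, the medians were 41.4, 56.9, 36.6 and 43.4 in the same order of libraries. The quartiles of the members were 5.32 and 20.3 in CFL1 knockout 3 and 4.74 and 16.3 in control 1, against 17.3 and 88.9 and 13.4 and 92.1 at the regions of all 6 libraries. Fold enrichment over the caller's background had medians of 4.23 and 4.32 in CFL1 knockout 3 and 5, and of 3.93 and 3.94 in control 1 and 2. At regions of all 6 libraries these fold medians were 6.07 and 6.81 in the CFL1 knockout libraries and 5.82 and 5.88 in the control libraries. Taking each region at its weakest among the CFL1 knockout and control libraries, 41.9% of the members reached a −log10 q of at least 5 (420 of 1002), against 83.8% of the regions of all 6 libraries. At a minimum of 20 it was 29 members, or 2.89%, against 48.4%, and at a minimum of 50 it was 3 members. Members were also narrower, with a median width of 451.5 bp (quartiles 324 and 631 bp), against 729 bp for regions of all 6 libraries. Neither trait was particular to the members, since regions of the opposite class had a median width of 404 bp. Their median −log10 q in control 1 and 2 was 11.1 and 13.9, and 48.8% of them reached 5 at their weakest among the METTL3 knockout and control libraries.

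**Figure D1:**
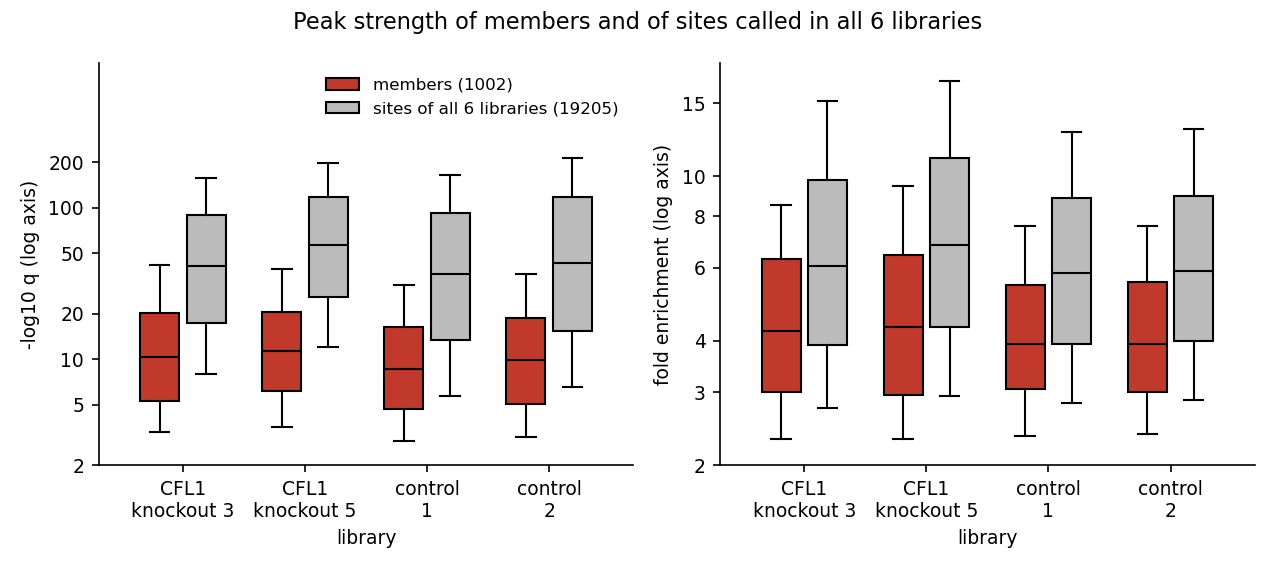
Authors' −log10 q (left) and fold enrichment (right), both on log axes, of the strongest peak per library at 1002 members (red) and at 19205 regions called in all 6 libraries (grey). Boxes span the quartiles with the median as a line, and whiskers run to the outermost deciles. The medians of the members lie below those of the grey boxes in all 4 libraries, for example at 10.3 against 41.4 in CFL1 knockout 3.

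Absence from the METTL3 knockout became less frequent the stronger the control peak was. Peaks of both control libraries were divided into deciles by their −log10 q. In the weakest decile, up to a −log10 q of 3.11, 12.5% of the peaks kept by both CFL1 knockout libraries had no METTL3 knockout peak (219 of 1747, interval 11.02% to 14.2%). In the fifth decile, up to 11.8, this was 8.56%. In the ninth decile, from 44.4 to 97.1, it was 0.972%, and in the strongest decile 0.189% (19 of 10029, interval 0.114% to 0.296%). The opposite class had like shares in the weaker deciles, where 11.7% of the peaks kept by both METTL3 knockout libraries were absent from the CFL1 knockout in the first decile and 7.64% in the fifth. Its shares were the larger ones among strong peaks, with 3.38% in the ninth decile and 1.13% in the strongest (117 of 10317, interval 0.939% to 1.36%). Between a −log10 q of 16.6 and 25.3, the seventh decile, the shares were 4.73% for the METTL3 knockout and 5.77% for the CFL1 knockout. The difference between the classes was not tested, since the same calls define them.

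**Figure D2:**
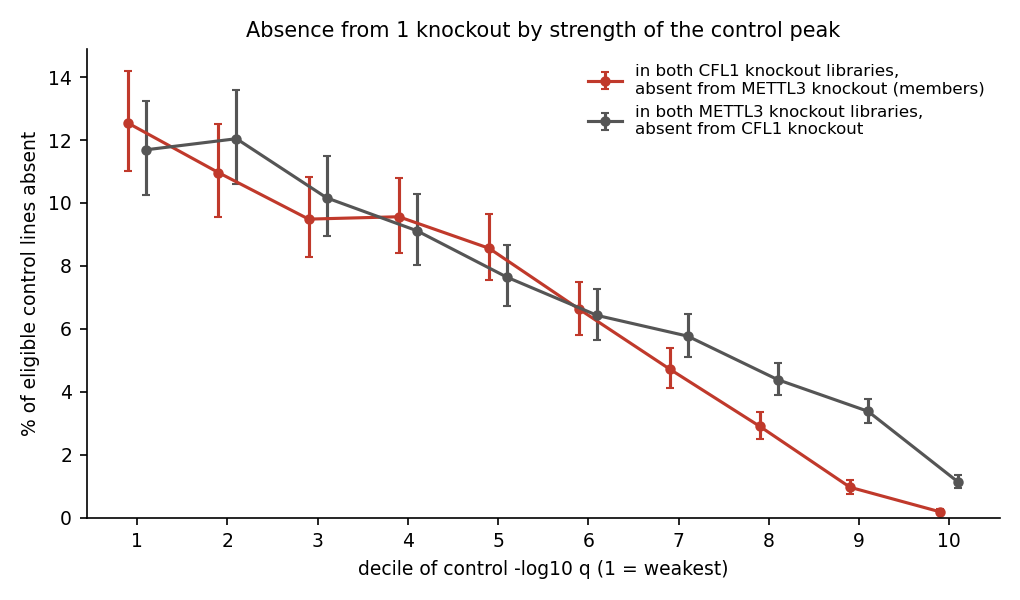
Share of eligible control peaks absent from 1 knockout, by decile of control −log10 q from weakest to strongest. Red shows peaks of both CFL1 knockout libraries absent from the METTL3 knockout, grey peaks of both METTL3 knockout libraries absent from the CFL1 knockout, and bars are exact 95% binomial intervals. Both fall with strength, to 0.189% in red and 1.13% in grey in the strongest decile.

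The number of METTL3 knockout libraries that held a site followed its strength in control. Eligible control peaks in neither METTL3 knockout library had a median −log10 q of 9.24, those in 1 library 10.9 and those in both 38.7. The median fold was 3.88, 4.50 and 5.77 in the same order, and the median width 385, 434 and 640 bp. Peaks of neither library thus lay close to those of 1 library in −log10 q and far from those of both.

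Most members had a METTL3 knockout peak in their surroundings. The nearest one lay at a median distance of 887.5 bp, within 100 bp for 11.7% of the members (117 of 1002), within 1 kb for 53.0% (531) and within 10 kb for 87.4% (876). The farthest was 282444 bp away. The 1282 regions of the opposite class lay farther from the nearest CFL1 knockout peak, at a median of 1519.5 bp, with 42.8% within 1 kb. Control regions absent from both knockouts lay at a median of 5713.5 bp from a METTL3 knockout peak, with 17.0% within 1 kb. Where a member had a METTL3 knockout peak within 1 kb, that peak had a median −log10 q of 10.7 (quartiles 4.55 and 26.9) and a median fold of 4.32. In 66.3% of these cases (352 of 531) the nearby METTL3 knockout peak overlapped a control peak. That control peak could also reach over the member, since such peaks were not left out.

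**Figure D3:**
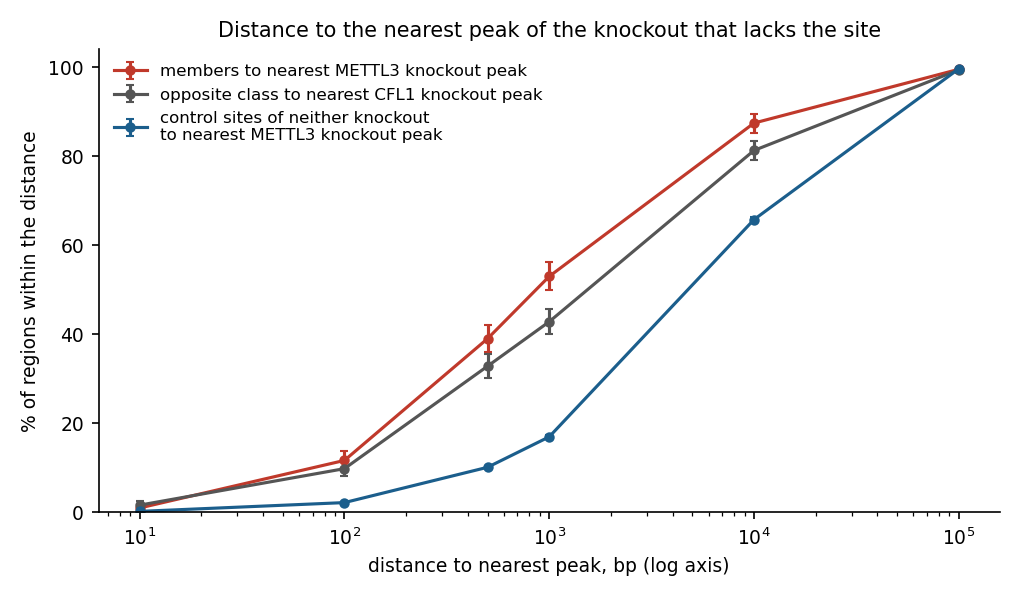
Cumulative share of regions with a peak within a given distance (log axis, 10 bp to 100 kb). Red shows the 1002 members and the nearest METTL3 knockout peak, grey the opposite class and the nearest CFL1 knockout peak, and blue control regions of neither knockout and the nearest METTL3 knockout peak, with exact 95% binomial intervals. At 1 kb the shares are 53.0%, 42.8% and 17.0%.

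The members fell into those that stood apart from METTL3 knockout peaks and those joined to them through a longer peak of another library. At 255 members (25.4%) a CFL1 knockout peak that reached over the member also reached a METTL3 knockout peak, and at 136 members (13.6%) a control peak did so. At 707 members (70.6%, interval 67.6% to 73.4%) no control or CFL1 knockout peak touched a METTL3 knockout peak. Of these, 471 were more than 1 kb from a METTL3 knockout peak, and the others stood apart only in not being joined to one. These 707 had a median line width of 354 and 331 bp in CFL1 knockout 3 and 5, and of 381 and 405 bp in control 1 and 2. The other 295 had widths of 705 and 778 bp in the CFL1 knockout libraries, and of 395 and 425 bp in the control libraries. Both CFL1 knockout summits lay inside the region at 61.8% of the members (619 of 1002), against 83.6% of the regions of all 6 libraries. The latter regions were wider, at a median of 729 bp against 451.5 bp, and a wider region holds a summit more readily. Both conditions, peaks clear of the METTL3 knockout and CFL1 knockout summits inside, held at 556 members (55.5%). Summits of CFL1 knockout 3 and 5 were a median of 54.0 bp apart at members, and those of control 1 and 2 were 29.0 bp apart. Between CFL1 knockout and control libraries the medians were 125 to 150.5 bp, and 111 to 125 bp at regions of all 6 libraries.

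By the lowest −log10 q of the 4 libraries, the strongest member lay at chr19:1458503-1459439 (hg19). Its −log10 q was 263 in CFL1 knockout 3 and 275 in CFL1 knockout 5, against 95.6 in control 1 and 91.6 in control 2. Its fold was 8.54 and 8.20 in the CFL1 knockout libraries and 6.79 and 5.82 in the control libraries. The CFL1 knockout values belong to peaks 2425 and 2534 bp wide, against 1241 and 937 bp in control, and a METTL3 knockout peak with a −log10 q of 175 began 122 bp from the member. Both CFL1 knockout libraries were above both control libraries, and their peaks extended beyond the member.

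This was 1 of 7 among the 12 strongest members at which a control or CFL1 knockout peak over the member also touched a METTL3 knockout peak. They lay on chromosomes 19 (3 members), 20, 16, 4 and 21, with METTL3 knockout peaks 25 to 684 bp away. At each of the 7, at least 1 CFL1 knockout summit lay outside the member. Chromosome 8, which held 39 members, was left out of this ranking. At chr19:1766581-1766860, control peaks of 262 and 254 bp lay under CFL1 knockout peaks of 5969 and 5481 bp, and the nearest METTL3 knockout peak was 38 bp away. The same CFL1 knockout peaks covered 2 other members, at chr19:1764462-1765133 and chr19:1769831-1770158. With chr19:1756605-1756898 they made up the only group of 4 members joined by gaps of at most 10 kb. That stretch of 13554 bp held 10 control regions, of which 6 had a METTL3 knockout peak and 10 a CFL1 knockout peak. These counts include the regions that hold the 4 members. The rule chose those members for CFL1 knockout peaks and no METTL3 knockout peak, so it sets part of the contrast.

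The other 5 of the 12 stood apart, with all peaks clear of METTL3 knockout peaks and CFL1 knockout summits inside the region. At chr5:14157406-14157807 the −log10 q was 34.4 and 51.4 in CFL1 knockout 3 and 5, against 60.5 and 42.0 in control 1 and 2, and the nearest METTL3 knockout peak was 12177 bp away. The fold there was 2.55 and 3.45 in the CFL1 knockout libraries and 3.76 and 3.08 in the control libraries, so the groups overlapped. The 4 summits lay within 92 bp of each other.

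At chr16:1412852-1413161 the 4 summits lay within 14 bp. The −log10 q was 61.3 and 49.1 in CFL1 knockout 3 and 5, against 33.2 and 67.4 in control 1 and 2, with a METTL3 knockout peak of −log10 q 4.71 at 1280 bp. At chr19:41119498-41119844 the summits lay within 15 bp, and the fold was 3.81 and 3.93 in CFL1 knockout 3 and 5, against 6.61 and 6.68 in control 1 and 2. Here both CFL1 knockout libraries were below both control libraries, and the nearest METTL3 knockout peak was 2697 bp away.

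The remaining pair were chr19:13207085-13207777 and chr9:140505793-140507067. At the first the fold was 2.83 and 2.65 in CFL1 knockout 3 and 5, against 4.16 and 4.10 in control 1 and 2, and a METTL3 knockout peak lay 837 bp away. At the second it was 7.29 and 6.45 in the CFL1 knockout libraries, against 8.60 and 7.16 in the control libraries, with a METTL3 knockout peak at 2140 bp. The groups overlapped at the second and did not at the first.

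Few members were far from every METTL3 knockout peak, as 126 of 1002 (12.6%) were more than 10 kb away. Outside chromosome 8, 406 members had a −log10 q of at least 5 in all 4 libraries. The farthest 6 of these were 38765 to 130490 bp from a METTL3 knockout peak. All 6 were clear of METTL3 knockout peaks with CFL1 knockout summits inside. The most distant, at chr12:107712545-107713123, had a fold of 7.94 and 5.13 in CFL1 knockout 3 and 5, against 7.68 and 5.08 in control 1 and 2, with summits within 10 bp. The nearest METTL3 knockout peak was itself weak, with a −log10 q of 2.29, and no other site of both control libraries lay within 10 kb.

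At chr2:189398022-189398638, the strongest of the 6, the −log10 q was 20.1 and 39.2 in CFL1 knockout 3 and 5, against 23.6 and 26.1 in control 1 and 2. The fold was 10.1 and 14.8 in the CFL1 knockout libraries, above 6.91 and 7.87 in the control libraries, and the METTL3 knockout was without a peak for 70952 bp. At chr16:69221728-69222448 there were 3 other control sites within 10 kb, and none of them had a METTL3 or CFL1 knockout peak. The member was thus the only site of both control libraries in that stretch that the CFL1 knockout kept. The others lay at chr2:42873590-42874192, chr12:113875830-113876057 and chr5:127495142-127496024, at 59846, 47047 and 38765 bp from a METTL3 knockout peak.

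Strength in the CFL1 knockout was on average close to that in control. The ratio of mean folds, CFL1 knockout over control, had a median of 0.10 on the log2 scale over the 1002 members (quartiles -0.35 and 0.57), beside 0.15 over the regions of all 6 libraries. Both CFL1 knockout libraries had a higher fold than both control libraries at 306 members (30.5%), where 34.6% of all eligible regions did. Both were lower at 225 members (22.5%), where 25.4% of all eligible regions were, so both shares were near the background. The median depended on which members were taken. It was 0.0034 at the 707 members clear of METTL3 knockout peaks and 0.31 at the other 295, where 38.6% had both CFL1 knockout libraries higher and 12.9% both lower. The 295 were set apart largely by long CFL1 knockout peaks, and a member takes the fold of such a peak. Their ratio is therefore raised by the split itself, by an amount that was not tested. Members with a METTL3 knockout peak within 1 kb had a median of 0.19, those at 1 to 10 kb -0.045 and those beyond 10 kb 0.024. With control peaks of a −log10 q of at least 10 alone, the median was -0.20; this minimum selects on control, the denominator of the ratio, and so lowers it by construction.

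At the 6 members named for a higher fold in the CFL1 knockout, the control peaks had a −log10 q of 5.46 to 15.2, and 5 of the 6 had a control or CFL1 knockout peak over them that touched a METTL3 knockout peak. At the same 5, at least 1 CFL1 knockout summit lay outside the member. The fold there belongs to a longer peak, not to the member alone. The 6 members were chosen for their higher fold in the CFL1 knockout, which is a description. The first, at chr22:42533825-42534243, had a fold of 22.9 and 25.8 in CFL1 knockout 3 and 5, against 6.07 and 5.43 in control 1 and 2, with a METTL3 knockout peak 88 bp away. At chr5:674076-674750 the CFL1 knockout peaks were 10065 and 10062 bp wide, against 668 and 414 bp in control. The summits of both CFL1 knockout peaks lay outside the member. The exception was chr3:47047448-47047879. Its fold was 7.49 and 11.8 in CFL1 knockout 3 and 5, against 2.80 and 2.48 in control 1 and 2, its −log10 q 49.1 and 86.3 against 10.1 and 7.25, and the nearest METTL3 knockout peak was 5566 bp away. The other 3 were at chr2:10540083-10540354, chr16:89360515-89360736 and chr17:6946302-6946744, with ratios of mean folds of 4.45, 4.23 and 3.03. The same CFL1 knockout peaks, 2563 and 3578 bp wide, covered the member at chr16:89360515-89360736 and one of the 12 strongest, at chr16:89358602-89358848, so their CFL1 knockout values are not independent.

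The 6 members named for a lower fold in the CFL1 knockout had a −log10 q of 5.37 to 14.5 in the CFL1 knockout libraries, against 30.05 to 256 in the control libraries. They too were chosen for the difference. At chr19:54368600-54368938 the −log10 q was 9.53 and 9.35 in CFL1 knockout 3 and 5, against 169 and 256 in control 1 and 2. The fold was 2.85 and 2.79 in the CFL1 knockout libraries, against 10.4 and 13.4 in the control libraries, a ratio of 0.237. The 4 summits lay within 79 bp, and a METTL3 knockout peak stood 2232 bp away. At this site the CFL1 knockout and the METTL3 knockout differed in whether a peak was called, while both CFL1 knockout values were far below both control values.

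Another such member lay at chr15:75850194-75851408, where the fold was 2.58 and 3.32 in CFL1 knockout 3 and 5, against 14.1 and 13.9 in control 1 and 2. All 12 other control sites within 10 kb of it lacked both METTL3 and CFL1 knockout peaks. At chr21:42550855-42551575 the −log10 q was 9.61 and 8.87 in the CFL1 knockout libraries, against 75.6 and 103 in the control libraries. The others were at chr20:25459029-25459775, chr19:3600443-3600903 and chr3:122880283-122880827, with ratios of mean folds of 0.230, 0.256 and 0.297. Of these 6, all but the one on chromosome 20 were clear of METTL3 knockout peaks, with both CFL1 knockout summits inside.

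**Figure D4:**
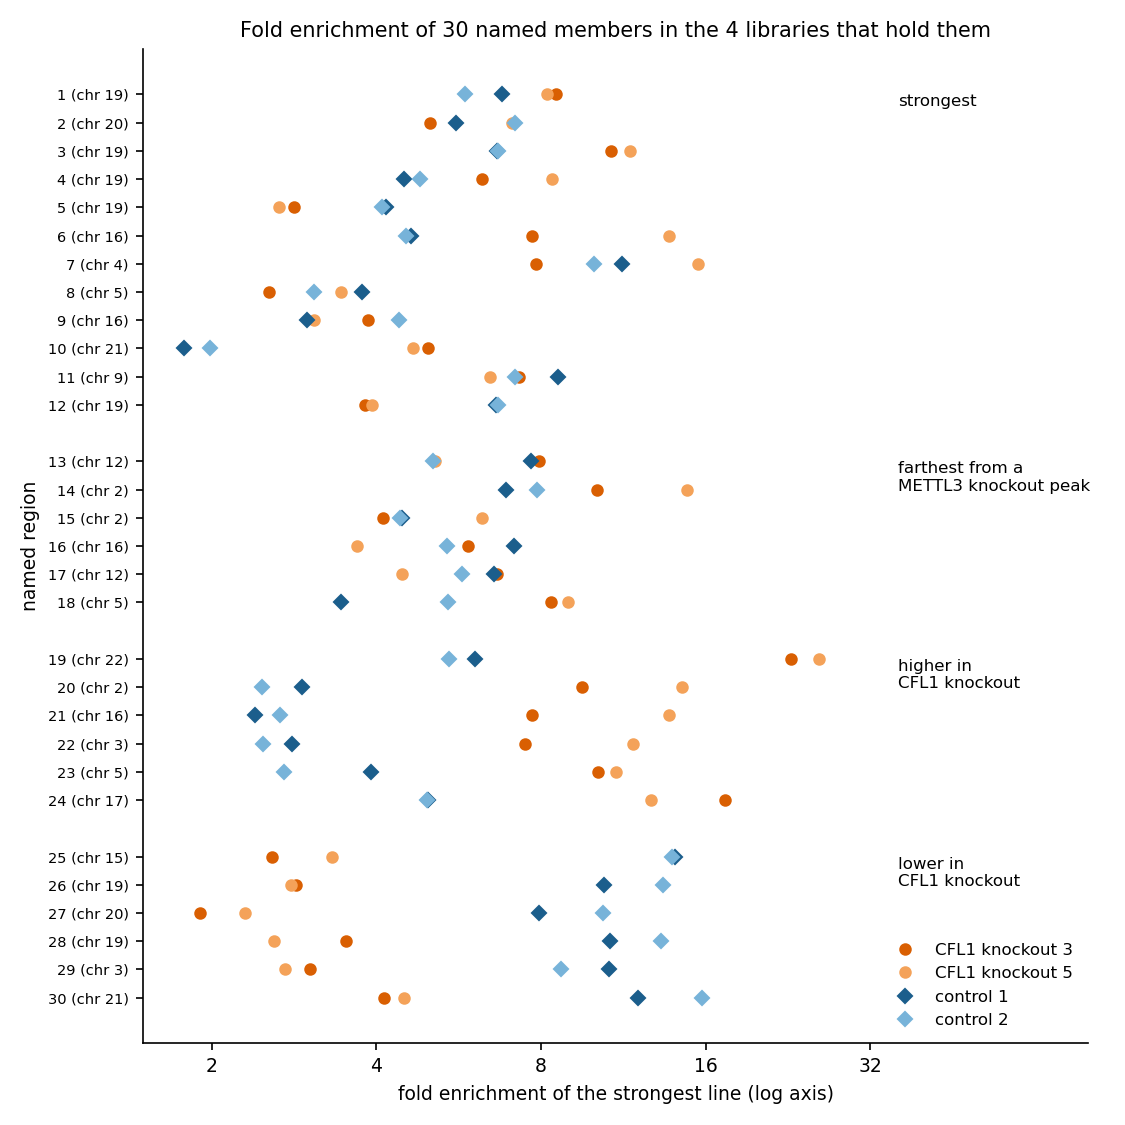
Fold enrichment (log axis) of the strongest peak of each library at 30 named members, in 4 groups from top to bottom. Circles are CFL1 knockout libraries and diamonds control libraries, and numbers give the rank under the rule with the chromosome in brackets. The groups named for a higher or lower fold in the CFL1 knockout were chosen for that separation; among the strongest and the farthest members the libraries overlap at several regions.

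Members were unevenly spread over the chromosomes. Chromosome 19 held 102 members, 10.2% of them, against 7.24% of all eligible regions, and chromosome 6 held 30, or 2.99% against 5.16%. Of the eligible control peaks on chromosome 19, 5.98% were absent from the METTL3 knockout (184 of 3075, interval 5.17% to 6.88%). On chromosome 18 the share was 6.10%, on chromosome 16 5.36% and on chromosome 17 4.95%, while on chromosome 6 it was 2.39% (53 of 2222, interval 1.79% to 3.11%). In the opposite class, absence from the CFL1 knockout was 3.78% on chromosome 19 and 6.13% on chromosome 6. The share absent from the METTL3 knockout exceeded the opposite share on 7 of 22 chromosomes, namely 8, 16, 17, 18, 19, 20 and 21. On chromosome 8 the shares were nearly equal, at 4.90% and 4.85%. At a control −log10 q of at least 10, it stayed higher on chromosomes 16, 19 and 21. The shares were 3.26% against 2.41%, 4.12% against 2.17% and 3.32% against 2.34%, and no intervals were formed. They were nearly equal on chromosome 17, at 2.97% against 2.96%. The order was reversed on chromosomes 8 (2.43% against 3.18%), 18 (3.57% against 4.15%) and 20 (2.50% against 3.08%).

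For single libraries, chromosomes 16 and 19 were the ones on which both METTL3 knockout libraries lacked a larger share than either CFL1 knockout library did. On chromosome 19, METTL3 knockout 3 and 5 lacked 9.50% and 10.8% of their eligible peaks, while CFL1 knockout 3 and 5 lacked 9.23% and 6.42% of theirs. On chromosome 16 the shares were 9.63% and 9.003% for the METTL3 knockout libraries and 8.23% and 7.33% for the CFL1 knockout libraries. On 12 chromosomes both METTL3 knockout libraries lacked a smaller share than either CFL1 knockout library. Chromosome 8 was among these 12, although its share absent from both METTL3 knockout libraries was slightly above the opposite share. On chromosome 6, METTL3 knockout 3 and 5 lacked 4.68% and 5.99%, and CFL1 knockout 3 and 5 lacked 13.8% and 10.2%. The eligible control peaks had a median −log10 q of 31.0 on chromosome 19 and 33.8 on chromosome 6, and the part of strength in the shares of the chromosomes was not tested. At a control −log10 q of at least 10, 4.12% of the eligible peaks on chromosome 19 and 1.35% on chromosome 6 were absent from the METTL3 knockout.

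**Figure D5:**
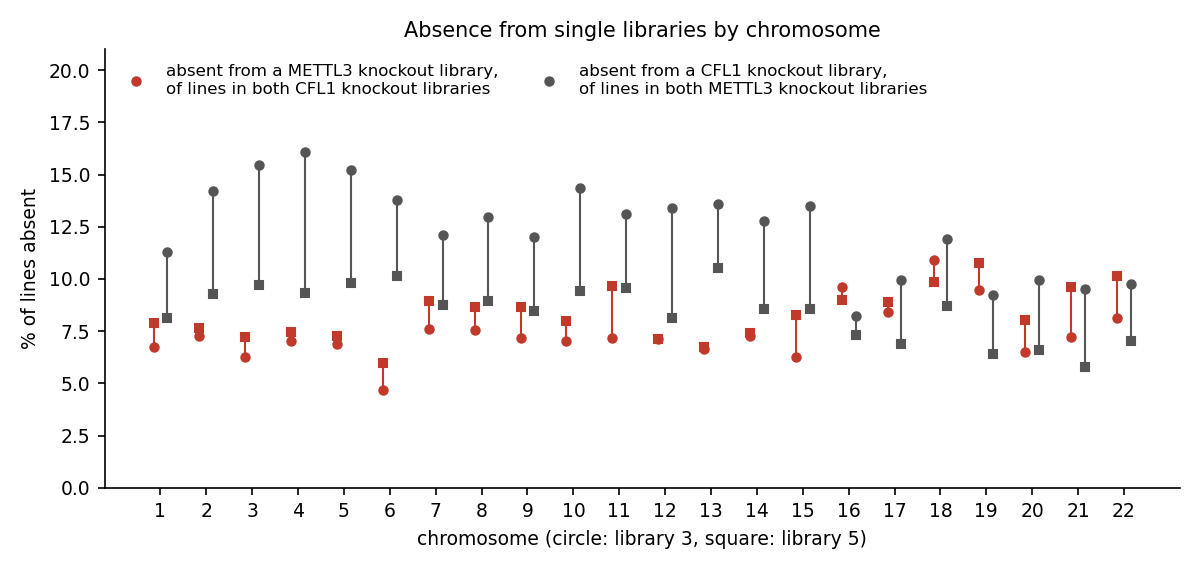
Share of eligible control peaks absent from single libraries on chromosomes 1 to 22. Red shows METTL3 knockout 3 and 5 among peaks of both CFL1 knockout libraries, grey CFL1 knockout 3 and 5 among peaks of both METTL3 knockout libraries, with circles for library 3 and squares for library 5. Both red points lie above both grey points on chromosomes 16 and 19, and below them on 12 others.

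A larger share of eligible peaks were members near the ends of the stretch of each chromosome covered by peaks. Within 2 Mb of the first or last peak of a chromosome, 6.21% of the eligible control peaks were absent from the METTL3 knockout (322 of 5186, interval 5.57% to 6.90%), against 3.93% elsewhere. Each METTL3 knockout library showed this, with 10.4% at the ends and 6.97% elsewhere in METTL3 knockout 3, and 10.6% and 8.01% in METTL3 knockout 5. The opposite class ran the other way, as 4.10% of its eligible peaks at the ends and 5.28% elsewhere were absent from the CFL1 knockout. The first peak of an acrocentric chromosome lies beside its centromere, so these ends are not all telomeric. Among windows of 1 Mb, 604 held a member and 21 held at least 5. The fullest was chr19:1000001-2000000, with 14 members among 86 eligible regions (16.3%, interval 9.20% to 25.8%). Next came chr16:89000001-90000000 with 9 of 80, chr16:2000001-3000000 with 8 of 106 and 3 windows with 7, among them chr5:179000001-180000000 with 7 of 30. These windows were picked as the fullest, so their shares are high by choice.

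A minority of the members lay near another member. A gap of at most 10 kb joined 122 of 1002 members (12.2%, interval 10.2% to 14.4%) to another member, in 58 groups, against 82 of 1282 regions of the opposite class (6.40%, interval 5.12% to 7.88%). Within 10 kb of a member's centre lay a mean of 2.27 other sites of both control libraries, against 1.90 in the opposite class and 2.12 around regions of all 6 libraries. No such site was found around 22.5% of the members, against 22.4% of the regions of all 6 libraries and 29.3% of the opposite class. The sites within 10 kb of members, members and the opposite class left out, had a METTL3 knockout peak in 64.3% of cases and a CFL1 knockout peak in 67.9% (1285 and 1355 of 1997). Around the opposite class these shares were 60.0% and 59.5% of 2291, and over all such control sites 51.2% and 51.4% of 50132. The rule asks for CFL1 knockout peaks and no METTL3 knockout peak at members, and a long peak can reach a neighbouring site. It can therefore set part of the contrast around members, and the difference between these shares was not tested.

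At the edge of the rule, 10 member peaks had a METTL3 knockout peak within 10 bp, with a median −log10 q of 6.50 and a median fold of 3.66. Just outside it, 25 eligible control peaks overlapped METTL3 knockout peaks by 10 bp at most, with a median −log10 q of 6.19 and a fold of 3.81. The widest member peaks measured 1872, 1811 and 1762 bp, and 1 control peak of 2086 bp met every other condition. The limit of width thus removed 1 peak, and peaks on either side of the overlap condition were of like strength.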

How the data were processed

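The submitters' processing notes name STAR, MACS2, bedtools and hg19. How input served as background, and all versions and settings, were not given in the sources used here. Per peak, the deposited values are a fold enrichment, which is a ratio, −log10 q, and the summit in bp from the start of the peak. Peak names in the authors' lists show 2 libraries called separately and joined in each list, so a site can have 1 line per library. Libraries were told apart by those names. Members were found with Python 3.11.15, and lines that overlapped were joined. In each library a region took the overlapping line with the highest −log10 q. Eligible control peaks are those in both control and both CFL1 knockout libraries. The opposite class exchanges the knockouts. The interval code was tested on simulated lists with known classes.

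Named members were the 12 with the highest value of their lowest −log10 q over 4 libraries. To these were added, among members with a lowest −log10 q of at least 5, the 6 farthest from a METTL3 knockout peak. A further 6 had the highest lower CFL1 knockout fold relative to the higher control fold, and 6 the lowest higher CFL1 knockout fold relative to the lower control fold. A region named under 1 part of the rule was passed over in the next, and chromosome 8 was left out. Members, lists and rules were chosen with earlier results of these data known. Sites clear of METTL3 knockout peaks, single libraries by chromosome, chromosome ends and neighbours were added after seeing the data. Gene names and sequences were not used, since the annotation at hand is of GRCh38. Read depth is unknown. Positions count from 1.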

Additional observations from a re-analysis of the deposited data

How the results depend on the processing

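No paired analysis was possible because libraries 3 and 5 of the knockouts could not be tied to replicates 1 and 2 of the labels. The main values were 1002 regions, 4.21% of eligible peaks, a median log2 ratio of folds, CFL1 knockout over control, of 0.10, a median width of 451.5 bp and 53.0% of members within 1 kb of a METTL3 knockout peak. The number of regions moved by over 1.5 times with 3 stricter settings. It was 521 with a minimum fold of 4 in every list, 559 with a minimum −log10 q of 10 in control and 488 with no METTL3 knockout peak within 1000 bp, a limit chosen after seeing the data. The other values below differ from the main ones by over 1 SD between libraries. For the shares this SD came from the 2 METTL3 knockout libraries, and for the width from the 2 control libraries. For the ratio it came from 4 pairs of a CFL1 knockout and a control library, which reuse the same libraries. It is therefore only a rough yardstick. The share of eligible peaks was 2.53% at that −log10 q in control, 5.10% with the control summit inside the other peak, 5.17% for peaks under 1000 bp and 2.16% with that limit of 1000 bp. The log2 ratio was 0.15 with 50% of the shorter peak shared, 0.040 with a minimum −log10 q of 5, 0.044 with a minimum fold of 4, -0.20 with a minimum −log10 q of 10 in control (which selects on the denominator), 0.13 with summits, 0.083 with no METTL3 knockout peak within 100 bp and -0.018 within 1000 bp. The width was 510 bp with a minimum −log10 q of 5, 576 bp with a minimum fold of 4 and 477 bp with summits. Within 100 bp and 10 kb of a METTL3 knockout peak lay 11.7% and 87.4%. With each library left out in turn, the results ran from 1232 to 1968 regions, 5.25% to 8.32%, -0.043 to 0.27, 343 to 479 bp and 45.2% to 48.7%. The cause was not tested, apart from fewer conditions leaving more regions by construction. Alternatives on gene features and DRACH were not run, since an hg19 genome was not used here. Read depth is unknown, so an absent peak may lie just under a threshold.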

Other observations

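Chromosome X lies outside the rule and held 21 further regions of the same kind. There 2.91% of the control peaks found in both CFL1 knockout libraries had no METTL3 knockout peak (38 of 1305, exact interval 2.07% to 3.98%), while 5.90% of those found in both METTL3 knockout libraries had no CFL1 knockout peak (86 of 1457, 4.75% to 7.24%). The strongest of the 21 lay at chrX:148620866-148621536, with a fold of 7.34 and 4.61 in CFL1 knockout 3 and 5, against 8.89 and 7.96 in control 1 and 2. Chromosome 8 was left out of the next choice too. Among other members with all peaks clear of the METTL3 knockout and CFL1 knockout summits inside, the strongest not yet named lay at chr22:50693232-50693589. Its −log10 q was 41.8 and 29.0 in CFL1 knockout 3 and 5, against 45.9 and 62.8 in control 1 and 2. Both regions were named after their values were seen.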
